A study of Mus musculus with 4 samples.

Results

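The mitochondrial Slc25 carrier family was described in differentiated 3T3-L1 cells, a mouse line that forms adipocytes in culture, from every gene of the deposited expression table whose symbol is Slc25a followed by a number. The rule found 43 of the 16051 genes in the table. Cells had been treated for 48 h with 100 μM risperidone, an antipsychotic drug, or with its vehicle DMSO, in 2 libraries per treatment. RNA of 3 cultures was pooled for each library, so every p-value below measures the spread between pooled libraries and not that between single cultures. All 4 libraries are labelled as NIH SWISS mouse, embryo tissue and mRNA, with no age, sex or genetic change stated. The control is labelled as untreated, whereas the methods name DMSO, and the extraction text speaks of retinas, which the methods do not mention. The comparison asked how risperidone changed the transcripts of mitochondrial transport in these cells, carrier class by carrier class.

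Carriers of this family sit mainly in the inner mitochondrial membrane, which small charged metabolites cannot cross unaided. They exchange ADP for ATP, bring in phosphate, amino acids, carnitine esters, nucleotides and cofactors, and carry out citrate. In adipocytes, citrate export feeds the cytosolic synthesis of fatty acids, and the carnitine carrier feeds their oxidation. Relatives called uncoupling proteins let protons or anions leak back and so turn the proton gradient into heat.

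Marker genes gave a limit to the label of the cells. Of 12 adipocyte genes, Lpl, the lipoprotein lipase, had the most, with 14999 and 15569 counts with DMSO and 12235 and 11967 with risperidone (log2 fold change -0.24, adjusted p = 0.00154, edgeR). Fabp4, a fatty acid binding protein, had 1079 and 1360 counts with DMSO and 492 and 586 with risperidone (log2 fold change -1.09, adjusted p = 1.64e-05, edgeR). The receptor Pparg had 388, 345, 384 and 364 counts in the same order. Adipoq, which encodes adiponectin, had at most 1 count in a library, and 4, 5, 3 and 0 of the 12 genes were at 0 counts. Only 4 of the 12 reached the mean of 1 FPKM required for testing. Of these, Lpl and Fabp4 fell, and Pparg and Cd36 were not called (log2 fold changes 0.12 and 0.27, edgeR). The median of the 4 was -0.06. Among the untested genes, Plin1 had at most 14 counts in a library and each of the rest at most 5. The fat cell state was therefore marked by part of its defining genes only, and in bulk RNA fewer fat cells and less RNA per cell cannot be told apart. Of 6 preadipocyte genes, 5 were tested, of which 3 rose, 1 fell and 1 was not called (median log2 fold change 1.05), and their summed level was 314 and 311 CPM (counts scaled to the size of the library) with DMSO and 409 and 427 with risperidone. Dlk1, a marker of undifferentiated cells, had 30.4 and 32.9 against 81.7 and 83.3 FPKM (fragments per kilobase of transcript, scaled to the mapped reads; log2 fold change 1.52, adjusted p = 1.11e-08, edgeR), and the surface protein Thy1 rose by 1.05 (adjusted p = 9.2e-08, edgeR). These markers moved with the treatment as the carriers below did, and their part in the carrier results was not tested. Of 15 genes typical of kidney, the summed level was 6.29, 5.73 and 4.50 CPM in both DMSO libraries and risperidone replicate 1 and 239 CPM in risperidone replicate 2. Liver genes summed to at most 0.333 CPM in the other libraries and to 17.5 CPM in risperidone replicate 2. Of that sum, Cyp2e1 gave 14.8 CPM and Serpina1a 1.79 CPM, while Alb had 5 counts and Apoa1 had 0 there. The liver sum thus rested mostly on 1 gene. Because of these kidney and liver values, results without risperidone replicate 2 are given below for the members changed by at least 0.5 on the log2 scale. Of 10 retina genes, 7 were in the table and summed to between 3.32 and 4.15 CPM. The libraries held between 15883712 and 16374119 counts, and a count of 0 allowed up to 3 counts, or 0.183 to 0.189 CPM, from counting error only.

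For the 3 members with the highest and the 2 with the lowest log2 fold change in the edgeR fit, the bases before the outermost annotated start are printed here from RefSeq, so that promoters of members that moved in opposite directions can be compared. They are on build GRCm38.p6, 5′ to 3′ on the strand of the gene. Capitals mark a CCAAT box (CCAAT, or ATTGG on the other strand) or a GC box (GGGCGG, or CCGCCC). The first is that of Slc25a30, at chr14:75787038-75787287 on the minus strand.
Slc25a30: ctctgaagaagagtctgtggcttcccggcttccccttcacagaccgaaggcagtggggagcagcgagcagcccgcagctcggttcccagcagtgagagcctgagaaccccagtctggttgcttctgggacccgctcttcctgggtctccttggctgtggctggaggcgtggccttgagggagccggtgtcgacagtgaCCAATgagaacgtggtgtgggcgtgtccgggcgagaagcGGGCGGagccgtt
Those of Slc25a25, at chr2:32451471-32451720, and Slc25a28, at chr19:43675007-43675131, are also on the minus strand.
Slc25a25: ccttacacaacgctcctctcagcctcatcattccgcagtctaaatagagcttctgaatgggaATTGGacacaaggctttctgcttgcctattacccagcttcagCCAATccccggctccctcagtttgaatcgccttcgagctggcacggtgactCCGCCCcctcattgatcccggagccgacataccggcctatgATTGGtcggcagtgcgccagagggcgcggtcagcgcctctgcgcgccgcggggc
Slc25a28: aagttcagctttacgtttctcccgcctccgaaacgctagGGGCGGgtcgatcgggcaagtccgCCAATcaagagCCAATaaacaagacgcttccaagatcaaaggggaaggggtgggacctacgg
Those of the members with the largest falls, Slc25a10 at chr11:120491587-120491836 and Slc25a45 at chr19:5877572-5877800, are on the plus strand.
Slc25a10: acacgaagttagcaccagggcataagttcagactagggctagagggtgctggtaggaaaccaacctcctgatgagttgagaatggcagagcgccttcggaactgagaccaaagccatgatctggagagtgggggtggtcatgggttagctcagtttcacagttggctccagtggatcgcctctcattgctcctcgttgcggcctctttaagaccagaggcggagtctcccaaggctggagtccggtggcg
Slc25a45: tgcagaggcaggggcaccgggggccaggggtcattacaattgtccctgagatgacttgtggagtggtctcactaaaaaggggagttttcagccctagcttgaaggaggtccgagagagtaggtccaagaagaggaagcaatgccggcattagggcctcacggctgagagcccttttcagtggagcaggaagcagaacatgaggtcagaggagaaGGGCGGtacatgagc
The printed stretches hold 250 bases, except those of Slc25a28, with 125, and Slc25a45, with 229, which were cut at the outermost start of the gene, so their motif counts are not over equal lengths. The 3 members that rose most held between 1 and 3 CCAAT boxes and 1 GC box each in these bases. Slc25a10 held neither, and Slc25a45 held 1 GC box. These genes were picked by their change, and counts over all members with a window are given further below. Of all genes with a window, 37.5% held a CCAAT box and 35.4% a GC box in the whole 250 bases.

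Of the 43 members, 35 reached the mean of 1 FPKM that was required for testing, and all of these reached it in both treatments. With edgeR's quasi-likelihood test and Benjamini-Hochberg adjustment over 10243 genes, 14 members were higher with risperidone at an adjusted p under 0.05, 16 were lower, and 5 were not called. In the whole table, 32.1% of the genes tested were higher and 32.2% lower, against 40% and 45.7% of the members. The median log2 fold change was 0.02 for the members and 0.00 for all genes, while the median size of the change regardless of sign was 0.38 for the members and 0.30 for all genes. At changes of at least 0.5 in size on the log2 scale, 5 members (14.3%) were higher and 9 (25.7%) lower, beside 12.4% and 15.3% of all genes. With limma on TPM, where the median log2 fold change of the whole table was -0.22, the split of members was 8 higher and 19 lower, beside 15% and 51.7% of all genes, and rises such as those of Slc25a4 and Slc25a1 were smaller (0.14 each, against 0.38 and 0.39 with edgeR).

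The share of all counts that fell on the family was 0.241% and 0.242% with DMSO and 0.251% and 0.251% with risperidone. The level of single members per transcript length differed widely, from a mean of 2.05 to 376 FPKM among the 35 tested. Slc25a4 alone held 24.6% and 25.3% of the summed FPKM of the family with DMSO and 28.9% and 27.8% with risperidone. Together with Slc25a5, Slc25a39 and Slc25a3 it stood at the top of the order of levels under both treatments. Changes of rank were largest for Slc25a10, which went from place 15 to 24 among the 35, Slc25a28, from 20 to 12, and Slc25a27, from 35 to 28. Of the 15 members with a mean of at least 20 FPKM, 9 rose and 5 fell, and over all 4053 genes at this level 44.8% rose and 26.1% fell. Of the 20 members below it, 5 rose and 11 fell, and over all 6190 genes there 23.7% rose and 36.3% fell. The tilt towards higher calls at high levels was thus one of the whole table as well. Of the 7 members under 5 FPKM, 5 fell and 2 were not called, and over all 2191 genes there 34.3% fell and 19.2% rose.

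**Figure D1:**
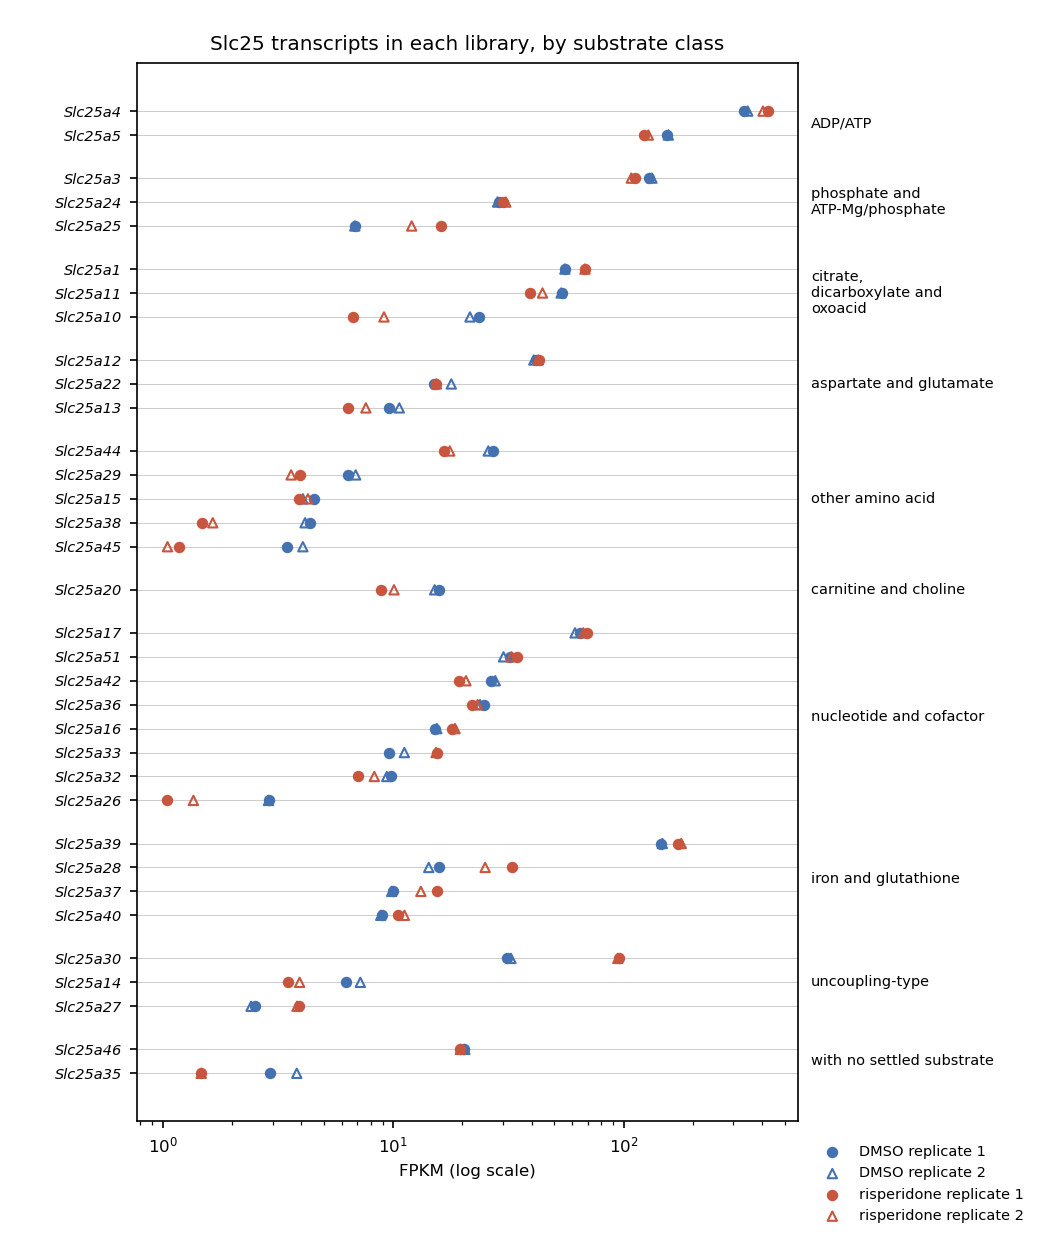
FPKM (log axis) of 34 tested Slc25 members in each of the 4 libraries, grouped by substrate class and ordered within a class by mean level; blue marks are DMSO and red marks risperidone, with circles for replicate 1 and triangles for replicate 2. Slc25a30 stands at 31.3 and 32.5 FPKM with DMSO and at 95.2 and 94.5 with risperidone, and Slc25a10 at 23.6 and 21.6 against 6.69 and 9.13.

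The uncoupling-type carriers, relatives of the uncoupling proteins by sequence, held the largest rise of the family. Slc25a30, named kidney mitochondrial carrier protein, lies at chr14:75757534-75787037. Its level was 31.3 and 32.5 FPKM with DMSO and 95.2 and 94.5 FPKM with risperidone, or 31.9 ± 0.834 and 94.8 ± 0.509 (SD, n = 2). Both risperidone libraries were alike and far above both DMSO libraries. The fitted rise was 3.13-fold, a log2 fold change of 1.65 ± 0.0516 (SE; 95% interval 1.53 to 1.76; adjusted p = 5.12e-09, edgeR), and 1.66 without risperidone replicate 2, the library with the kidney genes. Slc25a30 moved from place 9 to place 5 in the order of levels, and its share of the family's FPKM went from 2.31% and 2.37% to 6.49% and 6.51%. Slc25a14, also called UCP5 or brain mitochondrial carrier protein, lies at chrX:48623418-48662298. It had 6.25 and 7.21 FPKM with DMSO and 3.51 and 3.93 with risperidone, without overlap. Its log2 fold change was -0.76 ± 0.159 (SE, adjusted p = 0.0015, edgeR). Slc25a14 thus fell while Slc25a30 rose, and its share of the summed FPKM of the pair went from 16.6% and 18.2% to 3.56% and 3.99%.

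Slc25a27, or UCP4 (chr17:43637739-43667214), gave a call that depended on the unit and on 1 library. It had 277 and 281 counts with DMSO and 288 and 310 with risperidone, a log2 fold change of 0.19 (95% interval -0.02 to 0.40) that was not called (adjusted p = 0.097, edgeR). Without risperidone replicate 1 it was called, at 0.25 (adjusted p = 0.0456, edgeR). Its FPKM were 2.52 and 2.42 against 3.89 and 3.83, a ratio of 1.56 where the counts had a ratio of 1.07. The transcript length that count and FPKM imply was 6713 and 7310 bases with DMSO and 4551 and 5066 with risperidone. That ratio of lengths, 0.686, was reached or passed by 0.0492% of the 10163 genes for which it could be computed, while the other 34 tested members lay between 0.974 and 1.05. With limma on FPKM the gene was called higher (log2 fold change 0.49 on the log2(FPKM + 1) scale, adjusted p = 0.00265). A difference in the isoforms assigned to the gene and a difference in its amount cannot be told apart from these columns.

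All 4 carriers of iron and glutathione rose, with a median log2 fold change of 0.50, where 32.1% of all genes tested rose. Their summed level was 181 and 180 FPKM with DMSO and 231 and 228 with risperidone. Mitoferrins bring iron into the matrix for heme and iron-sulfur cluster synthesis. The broadly expressed mitoferrin-2, Slc25a28 (chr19:43663801-43675006), had 15.9 and 14.3 FPKM with DMSO and 32.7 and 25.1 with risperidone, or 15.1 ± 1.11 and 28.9 ± 5.39 (SD, n = 2). The treatments did not overlap, although the risperidone libraries differed by more than counting error, with 662 and 502 counts. The fitted rise was 2.07-fold (log2 fold change 1.05 ± 0.115 SE, 95% interval 0.79 to 1.30, adjusted p = 1.55e-05, edgeR) and ranged from 0.84 to 1.23 on the log2 scale with 1 library left out. Mitoferrin-1, Slc25a37 (chr14:69241848-69285544), which is most abundant in red cell precursors, had 9.98 and 9.86 FPKM against 15.4 and 13.2. It rose by a log2 fold change of 0.60 ± 0.0812 (SE, adjusted p = 6.98e-05, edgeR). Its counts were estimates that were not whole numbers, as those of Slc25a25 were.

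Slc25a39 and Slc25a40 take glutathione, the main soluble thiol of the cell, into mitochondria. Slc25a39 (chr11:102402969-102408675) was among the most abundant members, with 145.8 and 147.4 FPKM under DMSO and 172.5 and 178.1 under risperidone. Slc25a40 (chr5:8422730-8454839) was far lower, with 8.91 and 8.84 against 10.5 and 11.2 FPKM. Both rose by similar amounts, with log2 fold changes of 0.36 ± 0.0452 (SE, adjusted p = 4.73e-05) and 0.40 ± 0.068 (SE, adjusted p = 0.000416, both edgeR). The share of Slc25a39 in the sum of both ranged from 94.1% to 94.3% over the 4 libraries, and the treatments overlapped. On the TPM scale, neither passed the threshold, with log2 fold changes of 0.11 and 0.14.

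**Figure D2:**
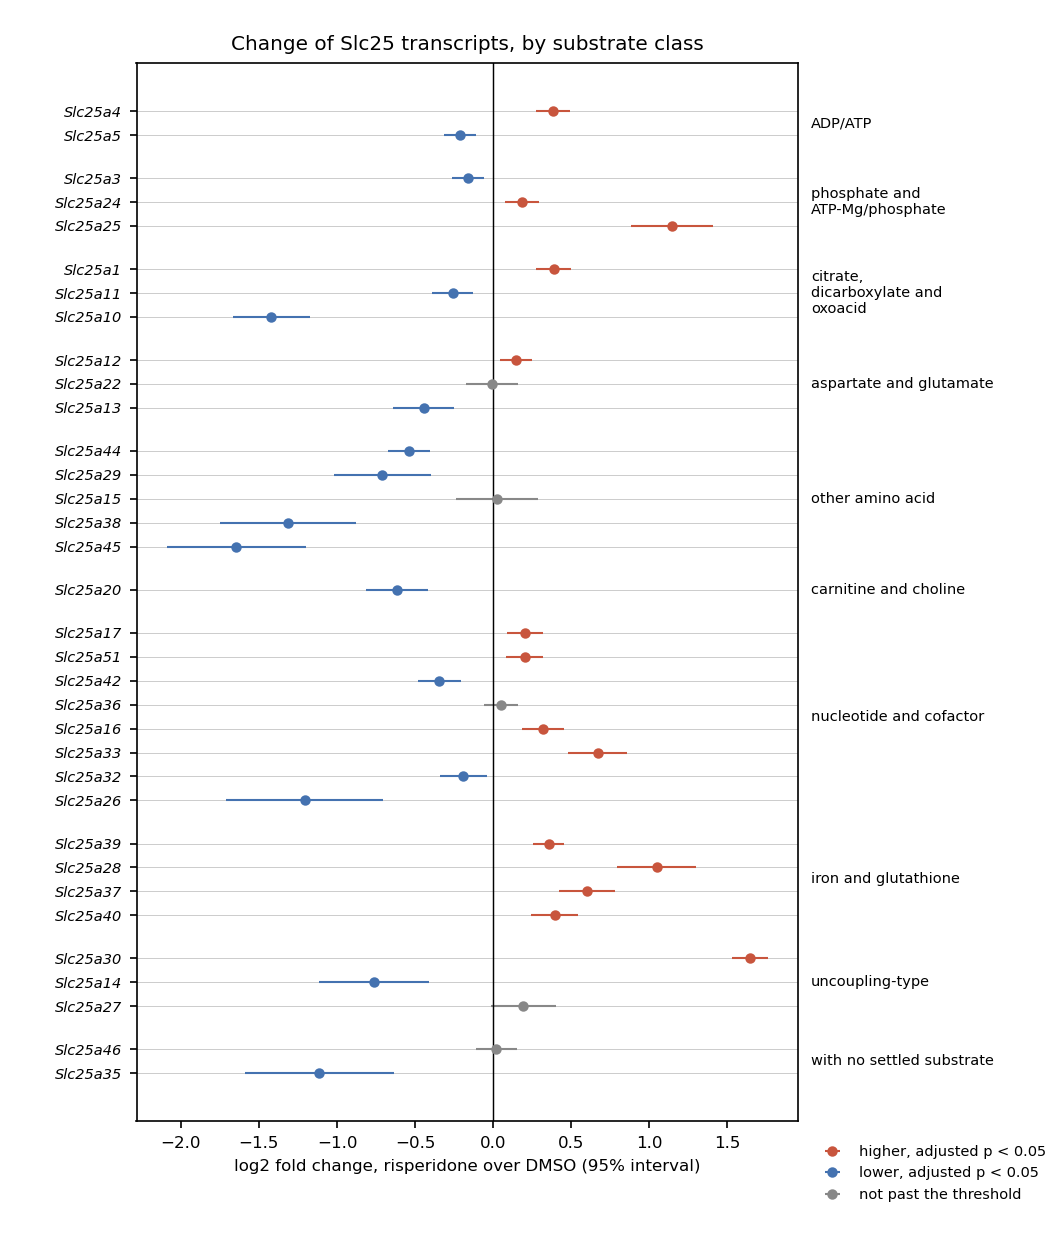
Log2 fold change of risperidone over DMSO for 34 tested members by substrate class, with its 95% interval from the edgeR fit (bars); red marks are higher and blue marks lower at an adjusted p under 0.05, and grey marks are not called. All 4 iron and glutathione carriers lie to the right of 0, and 4 of the 5 other amino acid carriers lie to the left.

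ADP/ATP carriers, which exchange the ATP made in the matrix for cytosolic ADP, are the most abundant proteins of the family, and their transcripts moved in opposite directions. Slc25a4, the form typical of heart and muscle (ANT1, chr8:46207168-46211062), had 332.7 and 346.0 FPKM with DMSO and 423.4 and 403.0 with risperidone, a log2 fold change of 0.38 ± 0.0496 (SE, adjusted p = 5.21e-05, edgeR). Slc25a5, the form typical of proliferating cells (ANT2, chrX:36795597-36798808), had 155.1 and 156.5 FPKM against 123.0 and 128.2, a change of -0.21 ± 0.0458 (SE, adjusted p = 0.00192, edgeR). RefSeq names 1 pseudogene of Slc25a5, which was not in the table. The share of Slc25a4 in their sum went from 68.2% and 68.9% to 77.5% and 75.9%. Their summed level of 487.8 and 502.5 FPKM with DMSO stood beside 546.3 and 531.2 with risperidone.

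Among the phosphate carriers, Slc25a3 (chr10:91116574-91124046), which imports the phosphate used by ATP synthase, fell slightly from 129.3 and 132.9 to 112.1 and 108.1 FPKM (log2 fold change -0.16 ± 0.0468 SE, adjusted p = 0.0117, edgeR). The calcium-regulated carriers Slc25a24 and Slc25a25 exchange ATP-Mg for phosphate and so set the adenine nucleotide content of the matrix. Slc25a25 (chr2:32414487-32451470) had 6.83 and 6.82 FPKM with DMSO and 16.1 and 12.0 with risperidone, or 6.83 ± 0.00707 and 14.1 ± 2.86 (SD, n = 2). It rose 2.21-fold (log2 fold change 1.15 ± 0.12 SE, 95% interval 0.88 to 1.41, adjusted p = 1.1e-05, edgeR), and by 0.91 to 1.35 on the log2 scale with 1 library left out. Both risperidone libraries were above both DMSO libraries, but they differed from each other by more than for most members, with 818 and 600 counts. Its locus overlaps Naif1, which had between 58.7 and 91.8 counts. Slc25a24 was higher in level but changed less, with 28.7 and 28.4 against 29.9 and 30.9 FPKM (log2 fold change 0.18 ± 0.0504 SE, adjusted p = 0.0078, edgeR). Its share of the pair went from 80.8% and 80.6% to 65.0% and 71.9%. Calls for Slc25a3 and Slc25a24 were lost when either DMSO library was left out (adjusted p from 0.052 to 0.125), and that for Slc25a24 also with library size as the only scaling (0.139) and in limma on FPKM with either pseudocount (0.157 and 0.161), and it turned to -0.05 on the TPM scale.

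Carriers of citrate and dicarboxylates did not move as one. Slc25a1 (chr16:17925211-17928219), the citrate carrier that supplies carbon for fatty acid synthesis in the cytosol, had 56.0 and 55.7 FPKM with DMSO and 68.3 and 68.0 with risperidone. It rose by a log2 fold change of 0.39 ± 0.0498 (SE, adjusted p = 5.15e-05, edgeR). Slc25a10 (chr11:120491837-120501161), which exchanges malate or succinate for phosphate and is abundant in white fat, fell most among the carriers with more than 5 FPKM. It had 23.6 and 21.6 FPKM with DMSO and 6.69 and 9.13 with risperidone, or 22.6 ± 1.46 and 7.91 ± 1.73 (SD, n = 2), from 1495, 1324, 421 and 565 counts. The log2 fold change was -1.42 ± 0.112 (SE, 95% interval -1.67 to -1.17, adjusted p = 1.37e-06, edgeR). It was -1.65 without risperidone replicate 2 and -1.22 without risperidone replicate 1. The counts of the risperidone libraries differed from each other by more than counting error. Slc25a11 (chr11:70644019-70647531), the oxoglutarate carrier of the malate-aspartate shuttle, had 54.0 and 53.6 against 39.4 and 44.5 FPKM, a change of -0.26 ± 0.0604 (SE, adjusted p = 0.00302, edgeR). The share of Slc25a10 in the sum of both went from 30.4% and 28.7% to 14.5% and 17.0%. Slc25a11 overlaps Rnf167, which had 453 and 454 counts with DMSO and 551 in each risperidone library, and the strand used in counting is not given in the sources used here.

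The fatty acid side of the family was represented by Slc25a20 (chr9:108662136-108684642), the carnitine-acylcarnitine carrier through which activated long-chain fatty acids enter the matrix. It had 15.8 and 15.2 FPKM with DMSO and 8.83 and 10.1 with risperidone, and all risperidone values lay below all DMSO values. The log2 fold change was -0.61 ± 0.0908 (SE, adjusted p = 0.000139, edgeR), with a range of -0.71 to -0.53 when 1 library was left out. The enzyme that acts just before it at the outer membrane, Cpt1a, which the study also followed, had 86.4 and 79.0 FPKM against 48.2 and 50.8, a log2 fold change of -0.64 ± 0.0554 (SE, adjusted p = 2.74e-06, edgeR). Cpt2, which acts after the carrier in the matrix, had 49.1 and 49.4 against 48.7 and 48.7 FPKM and was not called (log2 fold change 0.08, adjusted p = 0.148, edgeR).

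Aspartate and glutamate carriers supply the malate-aspartate shuttle, which brings reducing equivalents into mitochondria. Slc25a12, or aralar (chr2:71274270-71367781), had 41.8 and 40.8 FPKM with DMSO and 42.9 and 42.7 with risperidone, and its change of 0.14 ± 0.0468 (SE, adjusted p = 0.0191, edgeR) was lost when either DMSO library was left out (adjusted p = 0.12 and 0.24), with DESeq2 (adjusted p = 0.0902) and in limma on FPKM (adjusted p = 0.368), and it was -0.09 on the TPM scale. Slc25a13, or citrin (chr6:6041218-6217304), had 9.60 and 10.6 against 6.40 and 7.62 FPKM and fell by 0.45 on the log2 scale (SE 0.0896, adjusted p = 0.00121, edgeR). The share of Slc25a12 in the pair went from 81.3% and 79.3% to 87.0% and 84.8%. The glutamate carrier Slc25a22 had 15.0, 17.9, 15.3 and 15.4 FPKM. Its log2 fold change was -0.01 (95% interval -0.17 to 0.16, edgeR), and -0.23 on the TPM scale (adjusted p = 0.0404, limma).

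Of the 5 other amino acid carriers tested, 4 fell, where 32.2% of all genes tested fell and 36.3% of those under 20 FPKM. The summed level of the class went from 46.1 and 45.2 FPKM to 27.7 and 28.7. The median log2 fold change was -0.71. Slc25a44 (chr3:88410494-88425141), which brings branched-chain amino acids into mitochondria and is known from brown fat, was the most abundant of them. It had 27.1 and 25.9 FPKM with DMSO and 16.6 and 17.6 with risperidone, a log2 fold change of -0.54 ± 0.0622 (SE, adjusted p = 2.28e-05, edgeR). Slc25a45 (chr19:5877801-5885768) had the lowest log2 fold change of all members in the edgeR fit, though Slc25a10 was lower on the TPM scale, in limma on FPKM, after quantile normalization and without risperidone replicate 2. It had 105 and 119 counts with DMSO and 35 and 32 with risperidone. Its level was 3.48 and 4.06 against 1.18 and 1.05 FPKM, and the log2 fold change was -1.64 ± 0.203 (SE, 95% interval -2.09 to -1.20, adjusted p = 3.69e-05, edgeR). Slc25a38 (chr9:120110377-120126093), which imports glycine for the first step of heme synthesis, had 4.34 and 4.15 against 1.48 and 1.65 FPKM from 103, 99, 36 and 40 counts. Its change was -1.31 ± 0.197 (SE, adjusted p = 0.000153, edgeR). Slc25a29 (chr12:108825878-108835876), which carries basic amino acids, had 6.38 and 6.88 against 3.96 and 3.61 FPKM, a change of -0.71 ± 0.14 (SE, adjusted p = 0.00105, edgeR). The ornithine carrier Slc25a15 had 4.54, 4.06, 3.92 and 4.27 FPKM and was not called, with an interval of -0.24 to 0.29. In heme synthesis the glycine carrier was therefore lower while both mitoferrins were higher.

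Of the 9 carriers of nucleotides and cofactors, 4 were higher, 4 lower and 1 not called, beside 32.1% and 32.2% of all genes, with a median log2 fold change of 0.05. The largest rise was that of Slc25a33 (chr4:149744036-149774267), a pyrimidine nucleotide carrier, with 9.64 and 11.2 FPKM under DMSO and 15.6 and 15.4 under risperidone (log2 fold change 0.67 ± 0.0863 SE, adjusted p = 5.2e-05, edgeR). Its relative Slc25a36 had 24.9 and 23.8 against 22.0 and 23.3 FPKM, lower with risperidone, and was not called. Its log2 fold change from scaled counts was 0.05 (95% interval -0.06 to 0.16, edgeR). The share of Slc25a33 in the pair went from 27.9% and 31.9% to 41.5% and 39.8%. The largest fall was that of Slc25a26 (chr6:94500295-94604659), which imports S-adenosylmethionine, the methyl donor. It had 2.90 and 2.88 against 1.04 and 1.36 FPKM, from 84, 79, 28 and 38 counts, and a log2 fold change of -1.21 ± 0.227 (SE, adjusted p = 0.00078, edgeR). The locus overlaps Lrig1, a gene with 3235 to 4085 counts. Slc25a17 (chr15:81318921-81360765), a carrier of cofactors in peroxisomes rather than mitochondria, was the most abundant of the class with 65.0 and 61.6 against 69.2 and 66.9 FPKM (log2 fold change 0.20, adjusted p = 0.00568, edgeR).

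The smaller changes of this class were mixed. Slc25a16, linked to coenzyme A, and the NAD carrier Slc25a51 rose by log2 fold changes of 0.32 and 0.20. Slc25a42, which imports coenzyme A, and the folate carrier Slc25a32 had log2 fold changes of -0.35 and -0.19 (adjusted p = 0.000562 and 0.0295, edgeR). The calls for Slc25a17 and Slc25a51 were lost without DMSO replicate 2 (adjusted p = 0.145 and 0.111), with library size as the only scaling (0.0828 and 0.0898), after quantile normalization (0.144 and 0.0567) and in limma on FPKM with either pseudocount (0.0975 to 0.143), and both changed sign on the TPM scale, to -0.04 and -0.03. Slc25a32 lost its call without any library other than risperidone replicate 2 (adjusted p from 0.0508 to 0.241), and also with no filter (0.0817), with DESeq2 (0.197), after quantile normalization (0.212) and with length offsets without or with GC (0.0978 and 0.11). On the TPM scale, Slc25a36 was at -0.25 (adjusted p = 0.0109, limma), and Slc25a16 was no longer called (adjusted p = 0.196).

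Among carriers with no settled substrate, Slc25a35 (chr11:68968096-68972516) had 2.92 and 3.82 FPKM with DMSO and 1.47 in each risperidone library, from 82, 105, 41 and 40 counts, a log2 fold change of -1.11 ± 0.216 (SE, adjusted p = 0.000949, edgeR). Its locus overlaps Rangrf. Slc25a46, which sits in the outer membrane and acts in the shape of mitochondria, had 20.3, 20.5, 19.6 and 19.6 FPKM, lower with risperidone. Its log2 fold change from scaled counts was 0.02 (95% interval -0.11 to 0.15, edgeR), and -0.20 on the TPM scale.

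**Figure D3:**
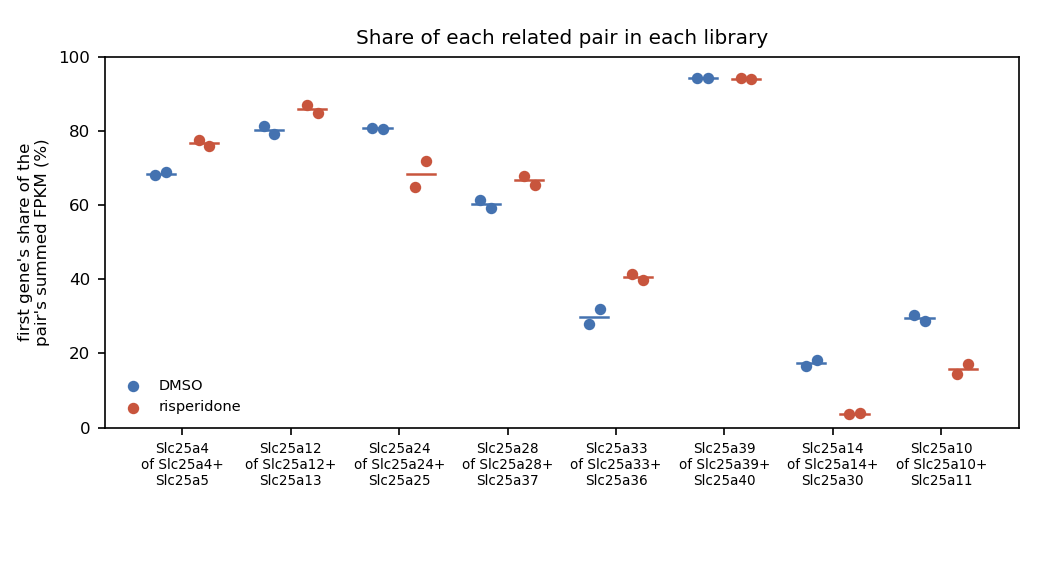
Percent of the summed FPKM of 8 pairs of related or alternative carriers that the first gene took in each library (points), with the mean of each treatment (lines). The share of Slc25a14 beside Slc25a30 went from 16.6% and 18.2% with DMSO to 3.56% and 3.99% with risperidone, whereas that of Slc25a39 beside Slc25a40 lay between 94.1% and 94.3% in all libraries.

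The balance within pairs was compared by the share of the first gene in the pair's summed FPKM, a measure per length. In 7 of the 8 pairs, the libraries of the treatments did not overlap, with differences between the means that ran from -13.8 percentage points for Slc25a10 beside Slc25a11 to 10.7 points for Slc25a33 beside Slc25a36. With counts in place of FPKM, these differences were -19.1 and 6.29 points. The share of Slc25a28 beside Slc25a37 went from 61.4% and 59.2% to 67.9% and 65.5%. With 2 libraries against 2, the exact permutation test, two-sided, cannot give less than p = 0.333, which was the value in these 7 pairs. The same measure was not computed for other pairs of genes. In the whole table, 32.1% of the genes tested were higher and 32.2% lower, so the count of 7 describes these pairs only.

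Without risperidone replicate 2, the log2 fold change was 1.66 for Slc25a30, 1.35 for Slc25a25, 1.23 for Slc25a28, 0.72 for Slc25a37 and 0.68 for Slc25a33. It was -1.65 for Slc25a10, -1.59 for Slc25a45, -1.45 for Slc25a26, -1.40 for Slc25a38, -1.10 for Slc25a35, -0.80 for Slc25a14, -0.71 for Slc25a20, -0.64 for Slc25a29 and -0.58 for Slc25a44. Each kept its direction. Each also stayed under the adjusted p of 0.05, in a fit where the spread came from the DMSO pair alone and the lone risperidone library was assumed to vary like it. Between replicates, 4 of 38 members with DMSO and 10 of 40 with risperidone differed by more than the limit that counting error passes in 5% of genes, beside 12.4% and 23.6% of all genes.

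**Figure D4:**
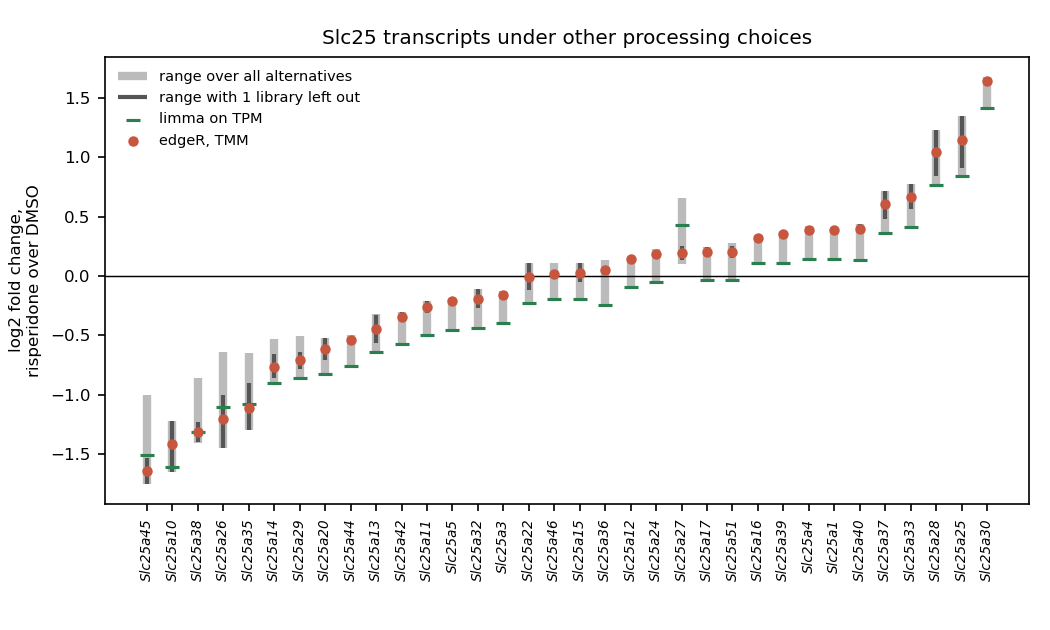
Log2 fold change of risperidone over DMSO for 34 tested members, ordered by the edgeR value (red points), with the range over all alternatives (grey bars), the range with 1 library left out (dark lines) and limma on TPM (green dashes). Slc25a30 ranges from 1.61 to 1.68 with 1 library left out, and Slc25a10 from -1.65 to -1.22.

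Below the filter stood 8 members. Slc25a47, a carrier of liver mitochondria, had 26 and 29 counts with DMSO and 8 and 14 with risperidone, and Slc25a53 had 18 and 13 against 8 and 5. Slc25a2, an ornithine carrier, had 4 and 3 against 11 and 10 counts, and Slc25a34 had 4 and 4 against 7 and 20. When all genes were tested without a filter, none of these was called (adjusted p = 0.0672, 0.153, 0.0822 and 0.109, edgeR). Slc25a23, an ATP-Mg/phosphate carrier, had 25 and 21 against 7 and 34 counts, so its risperidone libraries lay on either side of the DMSO libraries. Slc25a18, Slc25a21 and Slc25a41 had at most 3 counts in a library, which is no more than a count of 0 allows.

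Motifs were searched on both strands in the whole 250 bases before each start of transcription in RefSeq, not cut as in the printed stretches, for the 32 members with a window, and beside each count stands the share of all genes with a window that held the motif. A gene was counted where any of its windows held it, and 25 of the 32 members had 1 window. A CCAAT box stood before 18 of the 32 members and 37.5% of all genes. Of the members with a window, 7 of the 12 that rose and 4 of the 11 that fell held it. The GC box was found for 23 of the 32 members and 35.4% of all genes, in 9 of 12 that rose and 8 of 11 that fell. The E-box CACGTG was found for 6 members, among them Slc25a1 and Slc25a33 of those that rose and Slc25a13 and Slc25a14 of those that fell, and for 6.86% of all genes. A cyclic AMP response element (TGACGTCA, 1.77% of genes) was found in a window of Slc25a25, at another start than that printed, and of Slc25a36. The NRF1 motif (4.23%) was found for Slc25a3 only, and the ERR (TCAAGGTCA, 0.422%), PPAR (a direct repeat of the nuclear receptor motif spaced by a single base, 0.0407%) and FoxO (GTAAACA, 3.54%) motifs for none of the 32. These letters describe the windows and were not tested against the changes.

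Other genes of mitochondrial transport were read from the same fit for context. Of 42 tested, 22 rose and 5 fell, where 32.1% of all genes rose and 32.2% fell. On the TPM scale 6 rose and 17 fell, where 15% of all genes were higher and 51.7% lower, so most of the rises in the lists that follow were not called on that scale. Of the 3 relatives with other symbols that were tested, 2 fell and 1 was not called. Ucp2, an uncoupling protein of many tissues, went from 209.9 and 204.2 to 165.6 and 171.5 FPKM (log2 fold change -0.20, adjusted p = 0.0033, edgeR), and Mtch1, a relative in the outer membrane, from 126.4 and 134.2 to 90.8 and 85.4 FPKM (log2 fold change -0.50, adjusted p = 1.06e-05, edgeR). Mtch2 was not called (log2 fold change -0.01), Ucp3 was under the filter with at most 3 counts in a library, and Ucp1 was not analysed here. Ucp2 and Slc25a30 thus changed in opposite directions.

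Carriers outside the family and channels had 4 of 7 tested genes higher and 3 not called, with a median of 0.30, beside 32.1% of all genes higher. Mpc1, a subunit of the pyruvate carrier, had 100.4 and 108.7 against 160.3 and 150.7 FPKM and rose by 0.67 ± 0.0567 (SE, adjusted p = 2.38e-06, edgeR) on the log2 scale. Its partner subunit Mpc2 had 46.6 and 44.8 against 40.4 and 38.5 FPKM and was not called (log2 fold change -0.11, adjusted p = 0.146, edgeR). Sfxn1, a serine carrier, and the channel Vdac1 had log2 fold changes of 0.33 and 0.30. Of 7 genes of calcium and cation exchange, 5 rose and 1 fell (median 0.18). They were led by Micu3, a regulator of the calcium uniporter, at 0.59 and the sodium-calcium exchanger Slc8b1 at 0.45.

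The import machinery that places carrier proteins into the inner membrane had 9 of 15 genes higher and 1 lower, with a median of 0.26. Of all genes tested, 32.1% were higher and 32.2% lower. Timm8a1, a chaperone of the space between the membranes, had 24.7 and 22.8 against 49.1 and 47.9 FPKM and rose by 1.13 ± 0.0625 (SE, adjusted p = 1.34e-07, edgeR), and Timm10 of the same group rose by 0.61 (adjusted p = 0.00372, edgeR). The gene that fell was Timm22, the channel through which carriers of this family are inserted, named after its values were seen. It had 11.4 and 10.1 against 7.68 and 7.75 FPKM, a log2 fold change of -0.38 ± 0.0795 (SE, adjusted p = 0.00164, edgeR). Among 10 shuttle enzymes, 4 rose and 1 fell (median 0.09). The one that fell was Cpt1a, and the malic enzyme Me1, which makes cytosolic NADPH from malate, rose by 0.41 (adjusted p = 4.9e-05, edgeR).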

How the data were processed

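Processed data of 4 mRNA libraries (MGISEQ-2000) were used. The authors deposited, for each gene and library, an estimated count from the mapped reads, an FPKM value computed on their DC.TOM platform and a TPM value. The submitters' processing notes name Bowtie2, RSEM, DESeq2 and build GRCm38.p6 without roles. Between 90.1% and 90.4% of counts above 0 were exactly whole as deposited (tolerance 0), and all were rounded before testing. Testing covered the 10243 genes whose average over the libraries reached 1 FPKM and used edgeR 4.0.16 under R 4.3.3 (TMM, factors 0.963 to 1.03, biological coefficient of variation 0.0468), the quasi-likelihood F-test, two-sided, and Benjamini-Hochberg adjustment over all of them at 0.05. Each standard error was obtained as the size of the log2 fold change over the root of its F statistic. Alternatives used limma 3.58.1 on log2(value + 1) and DESeq2 1.42.0, and the tests were checked on simulated data. Coordinates and promoters are from RefSeq (GRCm38.p6), and all 43 members matched. Symbols Slc25a31, Slc25a43, Slc25a48 and Slc25a54 were not analysed here, and 1 tested member is counted but not reported here by itself or plotted.

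Members, substrate classes, pairs and the other lists were chosen with earlier results of these data known. Values in every library are given for members changed by at least 0.5 on the log2 scale, the most abundant member of each class, both genes of each pair, and members under the filter with at least 10 counts in a library. Of each other list, up to 3 changed genes were named. Mpc2, Mtch2 and Cpt2 were added after their values were seen.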

Additional observations from a re-analysis of the deposited data

How the results depend on the processing

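Over 17 alternatives, 20 of the 30 called members kept direction and call in every one that could be computed. Of 505 comparisons of a called member, 463 kept both, 38 lost the call and 4 changed sign, all 4 with limma on TPM. The 5 members that were not called changed sign in 20 of 83 comparisons under several settings, with values of -0.25 to 0.11, and gained a call in others. On the TPM scale the median of all genes was -0.22 and that of the members -0.23, and the log2 fold changes that turned and were called on either scale were -0.054 for Slc25a24, -0.091 for Slc25a12, -0.038 for Slc25a17, -0.25 for Slc25a36, -0.034 for Slc25a51 and -0.20 for Slc25a46. On that scale 8 members were higher and 19 lower, with 1536 and 5292 of all genes and 6 and 17 of the other transport genes. With library size as the only scaling, 10 members were higher and 16 lower, and 24.4% and 39.9% of all genes. At changes of at least 0.5 in size on the log2 scale, 5 members were higher and 9 lower, with 1269 and 1565 of all genes.

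With 1 library left out, between 10 and 15 members were higher and between 13 and 16 lower, with 2666 to 3310 and 2725 to 3350 of all genes. Of the other transport genes, 14 to 22 were then higher, the lowest without DMSO replicate 1, and 4 to 6 lower. The genes of these lists that fell numbered 10 with library size only, with length offsets, with limma on FPKM and with a pseudocount of 0.1, 9 with length and GC offsets and 8 after quantile normalization, of 42 tested, where 39.9%, 32.8%, 38.8%, 38.8%, 32.8% and 30.1% of all genes fell in the same order. The replicate numbers share only a number, with a correlation of -0.105 between treatments over 10243 genes. With the replicate block 14 members were higher and 16 lower, with 3292 and 3321 of all genes, and no member's call changed. The crossed pairing, chosen after the data were seen as were the offsets for length and GC together, gave 14 and 16 members and 3474 and 3519 genes. With length offsets Slc25a27 and Slc25a36 were called higher (adjusted p = 0.0155 and 0.0222, edgeR). The 4 members with the widest intervals, Slc25a26, Slc25a35, Slc25a38 and Slc25a45, rested on 28 to 119 counts in a library.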
